A study of Mus musculus with 6 samples.

Results

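The 10 genes described here encode actin, proteins that bind it and the transcription factor SRF, and were followed in mouse embryonic stem cells that overexpressed Rbbp4 or Rbbp7. They are Actb, Actg1, Cfl1, Pfn1, Tpm1, Tagln, Tagln2, Vcl, Vim and Srf, chosen by name out of 55401 genes in each table, in part because Actb was already known to be higher with Rbbp4. Their values in any comparison that holds the Rbbp4 libraries are therefore a description and carry no test. Bulk poly(A) RNA was sequenced from 46C cells, a mouse embryonic stem cell (mESC) line, in 6 libraries. The 2 control libraries, titled 46C control, were taken to come from the line of the methods that carried the biotin tag alone. The 2 Rbbp4 OE libraries came from cells with biotin-tagged Rbbp4 and the 2 Rbbp7 OE libraries from cells with biotin-tagged Rbbp7. RBBP4 and RBBP7 are closely related histone-binding proteins shared by several chromatin complexes. By the methods, the line with the tag alone and those with tagged Rbbp4 or Rbbp7 also carried the biotin ligase BirA. They were made with lentivirus and antibiotic selection, with no single clones named. All grew in serum with LIF and inhibitors of MEK and GSK3. Were the controls unmodified 46C cells, these steps could not be told apart from overexpression. No label says that the libraries of a group came from separate cultures, so the tests measure only the spread between these libraries, which may be technical.

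Actin is a globular protein that assembles into filaments. Profilin loads monomers onto growing ends, cofilin severs old filaments, the ARP2/3 complex starts branches, tropomyosins and transgelins coat filaments, and vinculin joins them to adhesion sites. SRF is a transcription factor that binds a short element, the CArG box, in the promoters of many of these genes. Its cofactors of the MRTF family bind monomeric actin, so the state of actin feeds back on the transcription of actin genes. MRTF and SRF activity is best known from fibroblasts and smooth muscle, where Tagln is a classical target. Non-muscle cells make both cytoplasmic actins, beta-actin from Actb and gamma-actin from Actg1, whose proteins are nearly the same while their mRNAs differ at many silent positions.

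Whether a read can be given to one of these mRNAs rests on the bases at which they differ. The coding parts of Actb and Actg1 were each 1128 bases long and differed at 128 of them, an identity of 88.7%. The first 30 coding bases of each, from the GENCODE M21 transcripts, show how densely the differences lie, with the 8 differing bases in capitals.
Actb: atggaTgaCgaTatcgcTgcGctGgtcGtC
Actg1: atggaAgaAgaAatcgcCgcActCgtcAtT
The longest run shared by both coding parts was 62 bases. Of the 50-base windows of the Actb transcript, 1.60% also occurred in the Actg1 transcript, and none of 75 bases or more did. Annotated pseudogenes at least 90% identical over at least 200 bases were found for Actb (4), Actg1 (13) and Cfl1 (4). Their summed level was at most 0.04 TPM for Actb and 12.3 to 19.3 TPM for Actg1.

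CArG boxes were looked for in RefSeq promoter windows, on GRCm38.p6, that run from 250 bases before a gene's start to 50 after it. A match to the CArG box consensus, searched on both strands, describes the letters and not a bound site. Windows were held for 8 of the 10 members, all but Actb and Tagln, and 3 of the 8 had a box: Actg1, Vcl and Srf, the last with a pair. Of all genes with a window 1.81% had one. In the wider list described below 10 of the 101 genes with a window had one (9.90%), and among its SRF targets 5 of 11. The boxes of the members are shown in capitals within 30 bases, because they give the SRF element beside 3 genes whose levels are given next.
Actg1 (chr11:120348566-120348595, minus strand, box at -90 to -81 from the start): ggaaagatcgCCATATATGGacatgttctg
Vcl (chr14:20929161-20929190, plus strand, box at -227 to -218 from the start): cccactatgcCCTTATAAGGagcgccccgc
Srf (chr17:46556225-46556254, minus strand, box at -82 to -73 from the start): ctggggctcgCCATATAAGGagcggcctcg
Srf (chr17:46556205-46556234, minus strand, box at -62 to -53 from the start): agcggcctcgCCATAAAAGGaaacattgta

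The labels and the cell type were checked first. Rbbp4 stood at 270.6 TPM in Rbbp4 OE against 146.5 in control and Rbbp7 at 736 TPM in Rbbp7 OE against 238 in control, as group means of 2 libraries. The glycolytic enzyme gene Gapdh stood at 6787, 6323 and 6657 TPM in control, Rbbp4 OE and Rbbp7 OE. TPM is a gene's share of all transcripts, corrected for transcript length and scaled to the same total in each library. All 12 mESC markers were at 1 TPM or more and summed to between 8388 and 9330 TPM, of which Dppa5a held 4166 to 5134 TPM, whereas none of 8 smooth and striated muscle markers had a mean of 1 TPM. Mitochondrial genes held 8.97% to 9.78% of the TPM of the control libraries, 9.89% to 10.45% with Rbbp4 OE and 11.0% to 11.2% with Rbbp7 OE, and the part of this in the results was not tested. One library stood apart in some fibroblast markers, though not in the number of genes that differed between replicates. In Rbbp7 OE replicate 1, 316 genes were more than 2-fold above replicate 2 on the log2(TPM + 1) scale and 152 were more than 2-fold below it. The same counts were 187 and 271 in Rbbp4 OE and 183 and 193 in control. The median absolute log2 difference between replicates was 0.12 in Rbbp7 OE, 0.12 in Rbbp4 OE and 0.18 in control. Its 12 fibroblast markers summed to 27.8 TPM against 8.31 to 15.3 TPM in the other 5 libraries. Of these markers Col3a1, a fibrillar collagen, stood at 6.39 TPM against at most 0.06. Fbln2, a matrix protein, stood at 6.95 TPM against at most 0.93. Only these 2 of the 12 were more than 2-fold above replicate 2 on the log2(TPM + 1) scale. Col1a1 was raised in both Rbbp7 OE libraries (0.81 and 0.86 TPM, against at most 0.46 in control and Rbbp4 OE), as was Col1a2. Thy1 was higher with Rbbp4 OE (8.87 and 10.8 TPM) than in Rbbp7 OE replicate 1 (7.01 TPM). Twist1, Prrx1, Pdgfra and Pdgfrb were highest in Rbbp7 OE replicate 1, Pdgfrb at 2.67 TPM against 2.62 in control replicate 2. Dcn was highest in Rbbp4 OE replicate 2 (0.36 TPM, against 0.21 TPM in Rbbp7 OE replicate 1). Postn and Lum were listed at 0 in every library. Results that rest on this library are given with and without it. In bulk RNA, fewer cells of a type and less RNA per cell cannot be told apart.

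Actb was higher and Actg1 lower than in control in all 4 overexpression libraries. Actb (ENSMUSG00000029580.14, GRCm38 chr5:142903115-142906754, minus strand) was measured at 1432 and 1472 TPM in the control libraries, at 2236 and 1944 TPM with Rbbp4 OE and at 1813 and 1714 TPM with Rbbp7 OE. The groups did not overlap, and the Rbbp4 OE libraries were above those of Rbbp7 OE. Actg1 (ENSMUSG00000062825.15, chr11:120345690-120348542, minus strand) gave the reverse order, from 2040 and 2001 TPM in the control libraries through 1633 and 1584 TPM with Rbbp7 OE down to 1338 and 1362 TPM with Rbbp4 OE. On the log2(TPM + 1) scale the difference from control in Rbbp4 OE was 0.52 ± 0.071 (SE, n = 2 per group) for Actb and -0.58 ± 0.036 for Actg1. Each SE given here came from a spread shared by all 3 groups. The difference from control in Rbbp7 OE was 0.28 ± 0.071 for Actb, which did not pass (limma, Benjamini-Hochberg adjusted p = 0.177), and -0.33 ± 0.036 for Actg1 (limma, adjusted p = 0.0334).

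**Figure D1:**
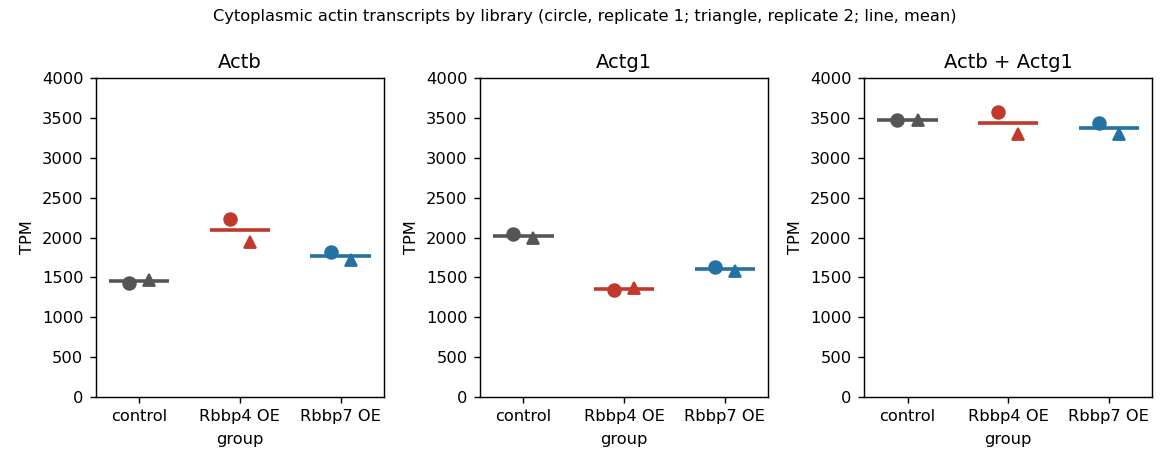
TPM of Actb, of Actg1 and of their sum in each library, by group on the horizontal axis (circle, replicate 1; triangle, replicate 2; line, group mean of 2 libraries). Actb was highest and Actg1 lowest in Rbbp4 OE, with Rbbp7 OE between it and control, while the sum stayed between 3298 and 3574 TPM in all 6 libraries.

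The sum of the pair varied less between libraries than either gene. The control libraries gave 3472 and 3473 TPM, those of Rbbp4 OE 3574 and 3306 TPM and those of Rbbp7 OE 3446 and 3298 TPM. Rbbp4 OE lay on both sides of control, and Rbbp7 OE was slightly below it. The share of Actb in the sum was 41.2% and 42.4% for the control libraries, 62.6% and 58.8% with Rbbp4 OE and 52.6% and 52.0% with Rbbp7 OE. The ratio of Actb to Actg1 was 0.719 ± 0.024 (SD, n = 2) in control, 1.55 ± 0.17 in Rbbp4 OE and 1.10 ± 0.02 in Rbbp7 OE. Actg1 was thus the more abundant of the pair in both control libraries, and Actb in all 4 overexpression libraries. The exact two-sided permutation test of the ratio between Rbbp7 OE and control gave p = 0.333, the smallest value that 2 libraries against 2 allow. A ratio within a library does not depend on the scaling between libraries, and with pseudogene TPM added to each gene it stayed within the replicate spread in 6 of 6 libraries. The main Actg1 pseudogene, Gm12715, is 99.6% identical to it and carried 11.2 to 17.7 TPM.

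The monomer and filament turnover genes, Cfl1 and Pfn1, differed less between groups than the actins. Cfl1, the non-muscle cofilin (chr19:5490455-5495201), was at 1312 and 1345 TPM without overexpression, at 1491 and 1532 TPM with Rbbp4 OE and at 1329 and 1364 TPM with Rbbp7 OE. Both Rbbp4 OE libraries lay above all others, whereas those of control and Rbbp7 OE overlapped. The log2 difference from control was 0.19 ± 0.038 in Rbbp4 OE and 0.02 ± 0.038 in Rbbp7 OE (limma, adjusted p = 0.859). Pfn1, the main profilin (chr11:70651850-70654644), was the most abundant member and stood between 2735 and 3071 TPM in the 6 libraries. Its log2 difference was 0.09 ± 0.053 in Rbbp4 OE and 0.02 ± 0.053 in Rbbp7 OE (limma, adjusted p = 0.917), and both signs turned to negative when GC content and transcript length were corrected for (-0.07 and -0.06).

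The filament-coating proteins did not share a direction. Tagln2, the transgelin of non-muscle cells (chr1:172500047-172507380), stood at 67.1 and 67.5 TPM in the control libraries, at 101 and 91.3 TPM with Rbbp4 OE and at 118 and 103 TPM with Rbbp7 OE. Every overexpression library was above both controls, and Rbbp7 OE was above Rbbp4 OE. The log2 difference from control was 0.71 ± 0.087 in Rbbp7 OE (limma, adjusted p = 0.0431) and 0.50 ± 0.087 in Rbbp4 OE. Without Rbbp7 OE replicate 1 the Rbbp7 OE difference was 0.61 (adjusted p = 0.264). Tpm1, an alpha-tropomyosin gene with 21 annotated transcripts (chr9:67022590-67049406), stood at 42.1 and 39.0 TPM in the control libraries and at 30.1 and 29.9 TPM with Rbbp4 OE, but at 51.8 and 28.9 TPM with Rbbp7 OE. Rbbp4 OE was below control in both libraries, and the Rbbp7 OE libraries lay on either side of it. The log2 difference was -0.42 ± 0.25 in Rbbp4 OE, and -0.06 ± 0.25 in Rbbp7 OE (limma, adjusted p = 0.942), which became -0.47 without Rbbp7 OE replicate 1 and 0.35 without replicate 2. Tagln, a smooth muscle protein and a classical SRF target (chr9:45929619-45936058), was near the bottom of the scale, with 0.88 and 0 TPM in the control libraries, 0.34 and 0.08 TPM with Rbbp4 OE and 1.51 and 0.15 TPM with Rbbp7 OE. Its groups overlapped, and it fell under the mean of 0.5 TPM that was asked for a test.

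Vcl, vinculin, was lower in both lines. Its values (chr14:20929398-21033676) were 16.3 and 20.6 TPM in the control libraries, 10.7 and 10.4 TPM with Rbbp4 OE and 14.4 and 13.4 TPM with Rbbp7 OE, and the 3 groups did not overlap. The log2 difference from control was -0.74 ± 0.13 in Rbbp4 OE, the largest of the 9 members that passed the filter, and -0.37 ± 0.13 in Rbbp7 OE (limma, adjusted p = 0.264).

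Vim, vimentin, an intermediate filament protein of mesenchymal cells (chr2:13573927-13582826), reached 295.9 and 305 TPM in the control libraries, 398 and 377 TPM with Rbbp4 OE and 558 and 322 TPM with Rbbp7 OE. All overexpression libraries were above control, but the Rbbp7 OE libraries lay on both sides of those of Rbbp4 OE. The log2 difference was 0.37 ± 0.23 in Rbbp4 OE and 0.50 ± 0.23 in Rbbp7 OE (limma, adjusted p = 0.378). The latter was 0.10 (adjusted p = 0.642) without Rbbp7 OE replicate 1 and 0.89 (adjusted p = 0.0392) without replicate 2.

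Srf itself did not separate the groups. It was measured (chr17:46548329-46556175) at 36.0 and 40.3 TPM in the control libraries, 36.3 and 34.3 TPM with Rbbp4 OE and 34.3 and 40.9 TPM with Rbbp7 OE, with all 3 groups overlapping. The log2 difference was -0.11 ± 0.11 for Rbbp4 OE and -0.02 ± 0.11 in Rbbp7 OE (limma, adjusted p = 0.954), and the latter turned to 0.01 when TPM was rescaled over nuclear protein-coding genes.

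**Figure D2:**
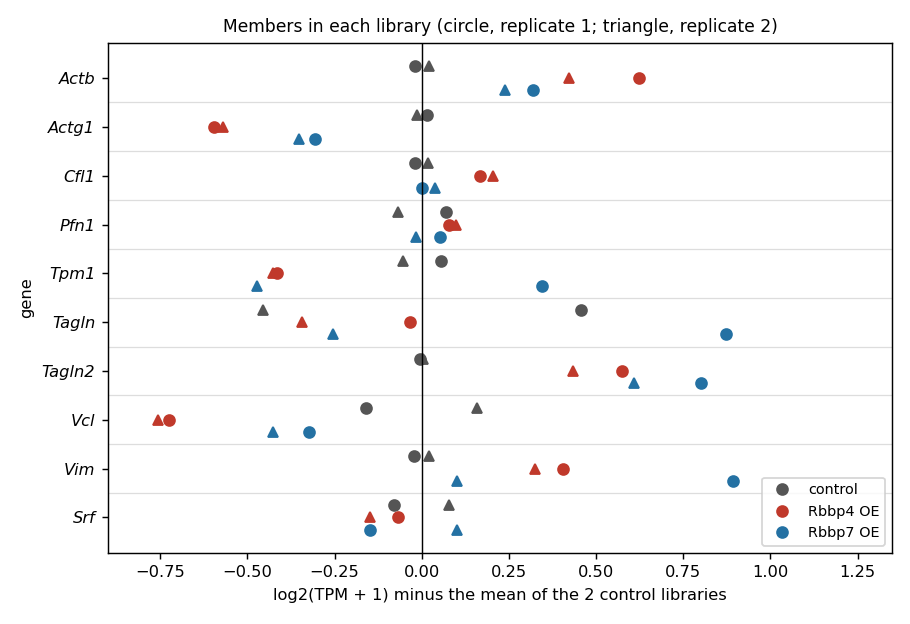
Difference of each library from the mean of the 2 control libraries, on the log2(TPM + 1) scale, for the 10 members (circle, replicate 1; triangle, replicate 2; colours, groups). Actb and Tagln2 lay to the right of control and Actg1 and Vcl to the left in all 4 overexpression libraries, and the Rbbp7 OE replicates were widest apart for Tagln, Tpm1 and Vim.

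By counts, 9 of the 10 members passed the filter on low values. Against control, 5 of the 9 were higher without overlap in Rbbp4 OE (Actb, Cfl1, Pfn1, Tagln2 and Vim) and 3 lower (Actg1, Tpm1 and Vcl), where 20.8% of all 14156 genes tested were higher and 37.1% lower without overlap. Since Actb in this comparison was part of the choice, nothing is read from that count. In Rbbp7 OE against control 3 were higher and 2 lower without overlap (21.2% and 23.4% of all genes), and 2 passed an adjusted p of 0.05, Tagln2 higher and Actg1 lower, where 0.487% of all genes passed, 0.198% higher and 0.29% lower. None passed the threshold set by the study, which asked for an adjusted p below 0.01 with a fold of more than 2 and which 0.0353% of all genes passed. Without either control library, either Rbbp4 OE library or Rbbp7 OE replicate 1, no member passed 0.05. Without Rbbp7 OE replicate 2, neither Tagln2 (adjusted p = 0.0811) nor Actg1 (adjusted p = 0.167) passed and Vim did. Between Rbbp4 OE and Rbbp7 OE, 3 members were higher in Rbbp4 OE without overlap (Actb, Cfl1 and Pfn1) and 3 lower (Actg1, Tagln2 and Vcl), against 16.1% and 38.6% of all genes. The median log2 difference over the 9 members was 0.09, 0.02 and -0.13 in the 3 comparisons in this order, beside -0.08, 0.00 and -0.08 over all genes tested. Both lines were compared with the same controls.

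By level, which TPM allows between genes because it is per length, Pfn1 led in all 6 libraries. In control it was followed by Actg1, Actb, Cfl1, Vim and Tagln2, and Tpm1 and Srf came next with overlapping libraries. Actb moved to second place in all 4 overexpression libraries, and in Rbbp4 OE Cfl1 also stood above Actg1. Vcl was the lowest of the tested members in each library. Across the 6 libraries, the protein-coding genes whose profiles were most like that of Actb, by root mean square difference of centred log2(TPM + 1) among 8572 genes, were Vps72 (0.047), mt-Nd6 (0.050), Alg13 (0.051), Hcn2 (0.056) and Cbr1 (0.059). None of them is an actin gene or on the wider list. Of the members, Cfl1 ranked 701 and Actg1 7698 in likeness to Actb.

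To set the members in their pathway, a wider list of 123 other genes of actin, adhesion, intermediate filaments and SRF was followed, of which 113 passed the filter. This list too was chosen with earlier results of these data known. Its counts and shares are therefore a description and not a test of the list. In Rbbp4 OE against control 25 fell and 3 rose at an adjusted p under 0.05 (limma), that is 22.1% and 2.65% of the list beside 8.07% and 3.29% of all genes tested. In either direction that was 24.8% of the list and 11.4% of all genes. The share of all genes that passed rose with their level. In a fit of genes with a mean of at least 5 TPM, 22.6% of all genes passed, and 31 of the list fell and 5 rose. The median log2 difference of the list was -0.10 and that of all genes -0.08. With median-of-ratios scaling between libraries the split was 20 lower and 10 higher, and with quantile normalization 22 lower and 8 higher. The 25 genes that fell had a median GC content of 45.9%, against 51.9% over the list and 50.2% over all genes tested. With GC content and length corrected for, the count was 29 lower and 2 higher, 25 of them shared with the 28. In that setting 10.5% of all genes passed. With any 1 library left out, the share of all genes tested that passed was lower than 11.4%. The count of 28 also depended on single libraries. It was lower with any 1 library left out, those of Rbbp7 OE included, which enter only through the shared spread. The list median was -0.15 without control replicate 1 and -0.03 without control replicate 2, beside -0.12 and -0.04 for all genes. Without Rbbp4 OE replicate 1 or 2 it was -0.12 or -0.10, beside -0.08 for all genes in both cases. In Rbbp4 OE against control, 37.1% of all genes tested were lower and 20.8% higher without overlap. Of the 12 mESC markers 6 were below both controls in both Rbbp4 OE libraries (Nanog, Esrrb, Klf4, Tfcp2l1, Tdgf1 and Fgf4) and 4 above (Pou5f1, Dppa5a, Utf1 and Sall4). Klf4, for one, was at 178 and 239 TPM in the control libraries and 160 and 141 TPM with Rbbp4 OE. The part of this in the list's values was not tested.

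One gene of the list passed the study threshold, which 0.516% of all genes tested did. Csrp1, a LIM protein of actin bundles, was at 83.0 and 83.7 TPM in the control libraries, at 33.2 and 38.3 TPM with Rbbp4 OE and at 45.6 and 44.9 TPM with Rbbp7 OE. Every overexpression library was well under both controls. Its log2 difference from control was -1.20 ± 0.085 in Rbbp4 OE (limma, adjusted p = 0.00348) and -0.87 ± 0.085 in Rbbp7 OE (limma, adjusted p = 0.0289). The call at the study threshold in Rbbp4 OE was lost with no filter on low values, with the replicate block, in the 2-group fit and without any 1 library, while the adjusted p was between 0.00101 and 0.0405 over the 17 alternatives. The Rbbp7 OE difference had an adjusted p between 0.0123 and 0.221 and was lost whenever any 1 library was left out (0.221 without Rbbp7 OE replicate 1).

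Genes of filament turnover and nucleation, with 20 tested in each role out of 113 in the list, made up 12 of the 25 that fell. In turnover, 5 of 20 fell (25%) and none rose. The whole list had 22.1% lower and 2.65% higher, and all genes tested 8.07% and 3.29%. Capza2, a subunit of the protein that caps filament ends, was at 54.3 and 58.7 TPM in the control libraries and at 31.9 and 33.3 TPM with Rbbp4 OE, a log2 difference of -0.77 ± 0.086 (limma, adjusted p = 0.00899). Its partner Capza1 was at 29.3 and 30.3 TPM in the control libraries and at 18.6 and 16.7 TPM with Rbbp4 OE, a log2 difference of -0.73 ± 0.14 (limma, adjusted p = 0.0299). The other 3 were Cfl2 (-0.67) and Dstn (-0.28), which are close to Cfl1 in function, and Wdr1 (-0.40), a cofactor of cofilin. In nucleation, 7 of 20 fell (35%) and 1 rose (5%). Arpc1b, an ARP2/3 subunit, rose from 78.0 and 76.3 TPM to 122 and 107 TPM, a log2 difference of 0.56 ± 0.10 (limma, adjusted p = 0.0247). Of the same complex Actr2 (-0.49), Actr3 (-0.60) and Arpc4 (-0.48) fell, as did Cttn (-0.51), which stabilises branches, and Brk1 (-0.29), Nckap1 (-0.65) and Cyfip1 (-0.59) of the WAVE complex, which activates ARP2/3. Genes given by a log2 difference alone, in this paragraph and the next 2, were named after their values were seen, apart from the close relatives of members and the SRF cofactors. Without control replicate 2 or either Rbbp4 OE library, none of the genes given here with TPM, Capza2, Capza1 and Arpc1b, kept an adjusted p under 0.05, and likewise for Itgb1, Pdlim7, Cald1 and Junb in the next 2.

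Among adhesion genes and membrane linkers 4 of 20 fell (20%) and 1 rose (5%), beside 8.07% and 3.29% of all genes tested. Itgb1, the integrin beta1 subunit, was at 38.0 and 42.8 TPM in the control libraries, at 20.7 and 19.7 TPM with Rbbp4 OE and at 27.3 and 24.2 TPM with Rbbp7 OE. Its log2 difference in Rbbp4 OE was -0.96 ± 0.10 (limma, adjusted p = 0.00869), and the value for Rbbp7 OE was -0.63. Besides Csrp1, Enah (-0.66) and Rdx (-0.68) fell, and Pdlim7, a PDZ and LIM protein of actin fibres, rose from 36.8 and 35.8 TPM to 48.8 and 55.3 TPM (log2 difference 0.50 ± 0.085, limma adjusted p = 0.0215). Of 23 cross-linking and myosin genes 5 fell (21.7%) and none rose. Cald1, caldesmon, was at 28.3 and 36.4 TPM in the control libraries and at 16.8 and 18.0 TPM with Rbbp4 OE (-0.85 ± 0.13, limma adjusted p = 0.0177). Tpm3 (-0.56) and Tpm4 (-0.58) fell, as did Cnn2 (-0.50) and Marcksl1 (-0.25). Tpm3 and Tpm4 are tropomyosin genes next of kin to Tpm1, a member that carries no test in this comparison. Tpm2 had a value of 0.38 and did not pass (adjusted p = 0.243).

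The cofactors of SRF gave no call in Rbbp4 OE. None of Mrtfa (0.13), Mrtfb (-0.02), Elk1 (0.06), Elk3 (0.35) and Elk4 (0.03) passed, with adjusted p from 0.289 for Elk3 to 0.967 for Mrtfb. Of 16 SRF targets 10 passed the filter, of which Ccn1, a matrix protein, fell (-0.65) and Junb, an immediate early transcription factor, rose from 34.2 and 30.6 TPM to 41.2 and 42.9 TPM (0.37 ± 0.086, limma adjusted p = 0.0474). That was 10% of those tested in each direction, beside 8.07% lower and 3.29% higher of all genes tested. The Junb difference was 0.19 with GC content and length corrected for, and its adjusted p was between 0.0284 and 0.217 over the alternatives. Of 8 intermediate filament genes Lmnb2 (-0.58), a nuclear lamin, fell (12.5%, beside the same 8.07%). The muscle actins Acta1, Acta2 and Actc1 were at 0.96 TPM or less in every library and Actg2 was listed at 0, so that Actb and Actg1 accounted for nearly all actin transcripts. Of the other family partners, Pfn2 (-0.20) and Tagln3 (-0.29) did not pass.

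**Figure D3:**
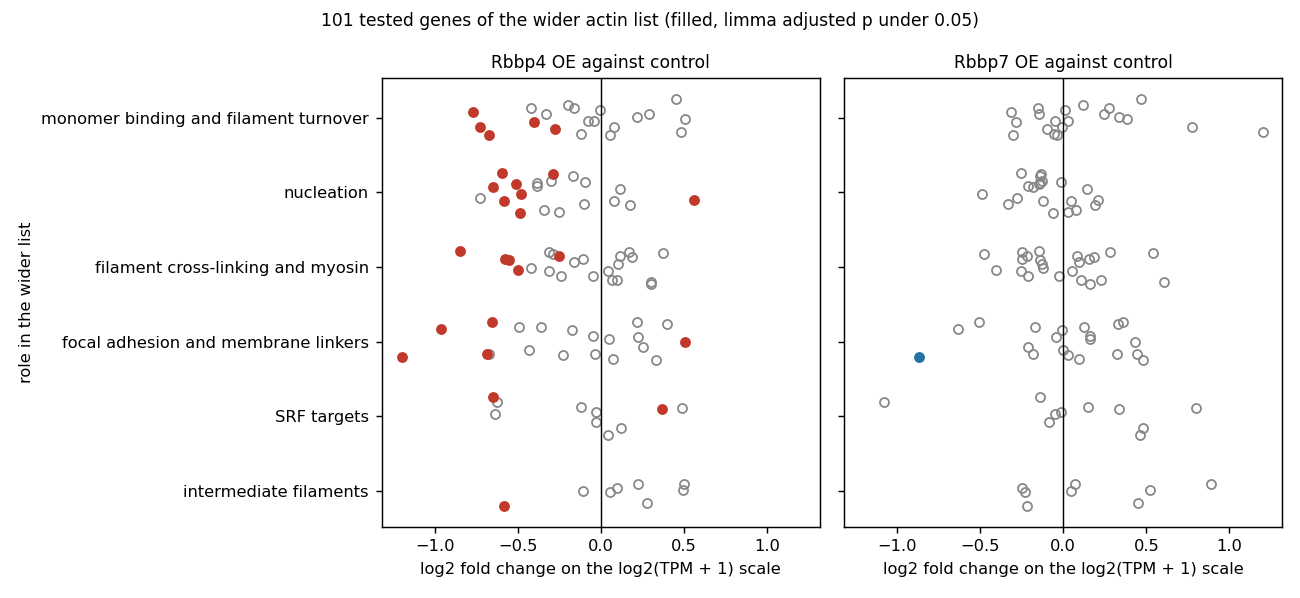
Log2 fold change, on the log2(TPM + 1) scale, of 101 tested genes of the wider list in 6 roles, for Rbbp4 OE (left) and Rbbp7 OE (right) against the same controls (filled, limma adjusted p under 0.05; vertical scatter within a role has no meaning). In Rbbp4 OE 23 filled points lie left of 0 and 3 right of it, and in Rbbp7 OE the only filled point is Csrp1.

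In Rbbp7 OE against control Csrp1 was the only gene of the list that passed an adjusted p of 0.05, and none passed the study threshold, beside 0.487% and 0.0353% of all genes. At an unadjusted p under 0.05 there were 18 of the list higher and 17 lower, that is 15.9% and 15.0% beside 7.26% and 8.14% of all genes, and without Rbbp7 OE replicate 1 there were 11 and 14 (9.73% and 12.4% beside 4.9% and 5.27%). Between Rbbp4 OE and Rbbp7 OE none of the list passed the study threshold or an adjusted p of 0.05 (limma; 0.0494% and 0.304% of all genes), while at an unadjusted p under 0.05 there were 35 lower in Rbbp4 OE and 2 higher. These were 31.0% and 1.77% of the list beside 14.1% and 4.91% of all genes, whose median was -0.08 beside -0.17 for the list. With median-of-ratios scaling there were 27 lower and 6 higher (list median -0.07, all genes 0.00). As shares that was 23.9% and 5.31% of the list beside 8.61% and 8.82% of all genes. Without Rbbp7 OE replicate 1 the list median was -0.125 beside -0.069 for all genes. Thus the larger number of calls in Rbbp4 OE than in Rbbp7 OE is not, for any 1 gene of the list, a difference that was shown between the lines. The largest of the values between them were those of Capza1 (-0.72) and Cald1 (-0.70) among the genes given above with TPM, and Tpm3 (-0.42 ± 0.053) had an adjusted p of 0.0645.

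The library that stood apart was also high in some genes of the wider list. In Rbbp7 OE replicate 1, Capg, a capping protein, was at 40.5 TPM against 13.2 to 16.0 TPM in the other 5 libraries. Fhl2 stood at 2.28 TPM against at most 0.32, and Cnn1, a smooth muscle calponin, at 1.32 TPM against at most 0.51. On the log2(TPM + 1) scale these 3 genes of the wider list were more than 2-fold above replicate 2. The smooth muscle actin Acta2 was not, at 0.05 TPM against 0.28 in replicate 2 and 0.22 and 0.96 in the control libraries. Among the members, Tagln was more than 2-fold above replicate 2 on that scale, and Vim and Tpm1 were at their highest of all libraries. None of the 8 muscle markers reached a mean of 1 TPM, and the part of any other cell type in these values was not tested.

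**Figure D4:**
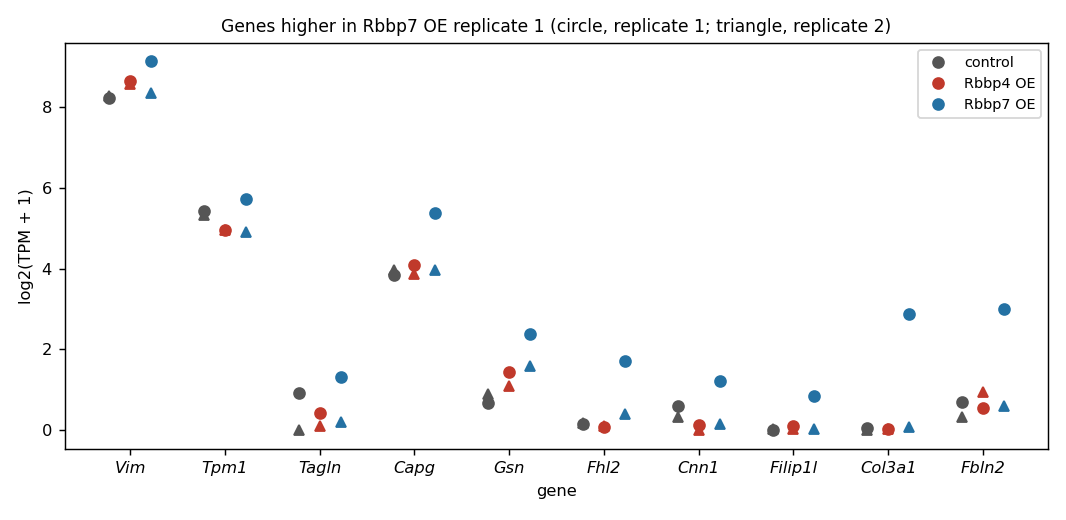
Level, as log2(TPM + 1), of 10 genes chosen after their values were seen, in the 6 libraries (circle, replicate 1; triangle, replicate 2; colours, groups). Rbbp7 OE replicate 1 is the highest library for each of them, including Vim at 558 TPM, Tpm1 at 51.8 TPM and Col3a1 at 6.39 TPM.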

How the data were processed

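The authors trimmed reads with Trim Galore, aligned them with STAR to mm10 with GENCODE vM25 and estimated expression with RSEM. The deposited TPM tables, 1 per library, are scaled to a fixed total, so depth is unknown and no counting interval is given. Strand use in counting was not given in the sources used here. Gene names came from GENCODE M21 on GRCm38, matched for 55141 of 55401 identifiers. The symbol Myl12b matched 2 identifiers, and the lower was used. Values were analysed as log2(TPM + 1), which understates the change of low genes, with limma-trend (limma 3.58.1, R 4.3.3) over all 3 groups in 1 fit with no covariate, for the 14156 genes with a mean of at least 0.5 TPM. P-values were adjusted by Benjamini-Hochberg over all of them. The study used a count model, which TPM does not allow. The script was tested on simulated data. The members and lists were chosen with earlier results of these data known. Named genes of the wider list are those past the study threshold and the 5 largest increases and decreases at an adjusted p under 0.05 whose libraries do not overlap, with the closest family partners, the SRF cofactors and the 5 genes most like Actb. A group of 12 genes of the wider list enters its totals and is otherwise not reported here, apart from the SRF cofactors. Pseudogenes were matched with blastn 2.17.0, and promoter windows came from RefSeq. Alternatives were other pseudocounts, filters, scalings, fits and each library left out, and, chosen after seeing the data, a correction for GC content and length.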

Additional observations from a re-analysis of the deposited data

How the results depend on the processing

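The limits lie in 2 libraries per group and in unknown depth. The 28 wider-list genes at an adjusted p under 0.05 in Rbbp4 OE against control became 16 with no filter on low values (more genes tested), 5 in the 2-group fit (fewer samples) and 1 to 24 with a library left out. The 1 past the study threshold became 0 with no filter, with the replicate block, in the 2-group fit and with any library left out. In Rbbp7 OE the 1 at 0.05 became 0 with no filter, the block, the 2-group fit and any library left out, 4 at a mean TPM of at least 5, and 2 with robust limma or the GC and length correction. Between the lines the 0 at 0.05 became 1 at a mean TPM of at least 5 and with robust limma. The 2 members at 0.05 in Rbbp7 OE became 0 with no filter, median-of-ratios scaling, the block or the 2-group fit, 1 with quantile normalization or the GC and length correction, and 0 to 1 with a library left out, the 1 being Vim and neither of the 2. The cause of these shifts was not tested. Of the Rbbp7 OE differences, 3 that were under 0.07 in size turned sign. Pfn1 went to -0.015 without Rbbp7 OE replicate 1 and -0.064 with the GC and length correction (-0.050 to 0.087 with a library left out), Tpm1 to 0.346 without Rbbp7 OE replicate 2 (-0.472 to 0.346), and Srf to 0.0051 with rescaling, 0.056 without control replicate 2 and 0.101 without Rbbp7 OE replicate 1 (-0.148 to 0.101). Same-numbered libraries did not deviate together (r = -0.026, 0.034 and -0.031 over genes), so the numbers were not taken to pair them. With the replicate block the 28 became 20. The Rbbp4 OE differences of 8 of the 9 members kept their sign in all 17 alternatives, the exception being Pfn1. Over the alternatives, 223 of the tested differences stayed on their side of 0.05, 75 lost the call, 1 gained it (Vim, without Rbbp7 OE replicate 2) and 7 turned sign.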

Other observations

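The tubulin genes, the other main cytoskeletal family of these cells, were followed beside actin. Of 11 tubulin genes tested 1 rose in Rbbp4 OE against control at an adjusted p under 0.05, Tubb4b, a beta-tubulin, with a log2 difference of 0.25 (limma, adjusted p = 0.018), and none fell, beside 3.29% of all genes higher and 8.07% lower. With an unadjusted p under 0.05 there were 4 higher and 2 lower, where 9.01% and 20.6% of all genes were, and with median-of-ratios scaling 4 and 0, where 14.1% and 15.1% of all genes were. In Rbbp7 OE against control and between the lines no tubulin passed, and 1 and 3 had an unadjusted p under 0.05, each of them higher, where 7.26% and 4.91% of all genes were. The median log2 difference of the tubulins in Rbbp4 OE was 0.01, against -0.10 for the wider actin list and -0.08 for all genes tested.

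Other marker lists gave the following sums over the 6 libraries, with no test. Trophoblast markers summed to 35.4 and 38.1 TPM in the control libraries, to 46.0 and 47.2 TPM with Rbbp4 OE and to 43.4 and 45.3 TPM with Rbbp7 OE. Tfap2c (23.1 and 26.4 TPM in the control libraries, 35.0 and 32.7 TPM with Rbbp4 OE) and Eomes were higher in all 4 overexpression libraries than in both controls, and Cdx2 (5.49 and 4.88 TPM against 2.93 and 3.70 TPM) and Gata3 were lower. Neural and formative markers summed to between 98.1 and 125 TPM, of which Tubb3, also one of the tubulins above, held 89.5 to 114 TPM. Primitive endoderm markers summed to between 2.61 and 5.61 TPM.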
